A study of Mus musculus with 18 samples.

Results

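The proteasome is a barrel-shaped protease that degrades proteins marked with ubiquitin. The genes described here were the protein-coding mouse genes whose symbols begin with *Psma* to *Psmg* and a number, and 51 of the 21627 protein-coding genes in the count table (55414 genes in all) met this rule. Another 5 symbols of the same form belong to processed pseudogenes and were left out. By role, 14 of the 51 encode the constitutive 20S core, 3 the catalytic subunits of the immunoproteasome, 2 tissue-restricted core subunits (*Psma8* of testis and *Psmb11* of thymus), 17 the 19S regulatory particle, 7 assembly factors and 6 alternative activators or inhibitors. The remaining 2, *Psmc3ip* and *Psme3ip1*, match by name only, and their products are not subunits of the proteasome.

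The 20S core is a stack of rings, of which the outer pair is made of alpha subunits that gate the entrance and the inner pair of beta subunits, with the proteolytic sites on *Psmb5*, *Psmb6* and *Psmb7*. The 19S particle caps the core, with a base whose ATPases unfold the substrate and a lid that removes the ubiquitin chain. Interferon induces *Psmb8*, *Psmb9* and *Psmb10*, which replace the constitutive catalytic subunits and change which peptides are made for antigen presentation, and it also induces the activator genes *Psme1* and *Psme2*.

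The RNA-seq libraries came from Neuro-2a (N2A) cells, a mouse neuroblastoma line, taken 72 h after transfection with siRNA, and total RNA was depleted of rRNA. There were 18 libraries in 6 groups of 3: Scramble control siRNA A and B, *Fmr1* siRNA A and B, and *Zfp598* siRNA A and B. The letters tell the siRNAs of 1 target apart and do not pair siRNAs of different targets. *Fmr1* encodes FMRP, an RNA-binding repressor of translation, and *Zfp598* encodes a ubiquitin ligase that senses collided ribosomes and starts no-go mRNA decay. The experiment asked which transcripts change when either protein is depleted. All libraries came from 1 cell line. The study describes the knockdowns as made in triplicate with each siRNA, and whether these were set up from separately grown cultures is not given in the sources used here, so the p-values measure the spread between these samples.

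Total counts ranged from 7674724 to 15414590 per library. Each target was lower with its siRNAs: *Fmr1* lay at 50.2 to 74.7 CPM (a gene's counts scaled to a common library size, here the TMM-normalised one) in the 12 other libraries and at 15.7 to 27.5 in *Fmr1* KD, and *Zfp598* at 91.1 to 128 against 32.2 to 48.7 in *Zfp598* KD. A feature absent from the annotation used here took 5.00% to 8.83% of the counts in 15 libraries but 11.1% in Scramble replicate A1, 15.2% in *Zfp598* A2 and 25.8% in *Zfp598* A3, so the counts of members called are also given without these 3. Replicate B1 of *Fmr1* KD held pluripotency transcripts (6 genes summing to 27.0 CPM, against at most 1.18 in the other 17 libraries). The neuronal markers *Stmn2*, *Tubb3*, *Elavl4* and *Uchl1* were abundant in every library, whereas *Nefl* and *Nefm* were at 6 counts or fewer. Of 6 immune markers only *Cd74* exceeded 24 counts, and *Ptprc* had at most 4.

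In Scramble KD cells the constitutive core and the base genes that are not ATPases were the most abundant classes by their medians. The immunoproteasome was the least abundant apart from the tissue-restricted and name-only genes. Levels between genes were compared as CPM per kb of the canonical transcript, as the mean of the 6 Scramble libraries, and the class medians were 81.1 for the 7 alpha genes, 88.2 for the 4 structural beta genes, 87.8 for the 3 constitutive catalytic genes and 8.40 for the 3 immunoproteasome genes. Within the 19S particle the medians were 37.9 for the 6 base ATPases, 84.0 for the 3 other base genes and 37.3 for the 8 lid genes. Assembly factors had a median of 15.05 and the activators and inhibitors one of 21.3. Although core subunits enter the barrel in equal numbers, the per-length levels of the 14 core genes ran from 9.16 (*Psmb2*) to 197 (*Psma6*), a range of 21.5-fold. Each level was divided by the length of a canonical transcript, and for core genes these run from 774 to 6002 bases. Whether the cells express these transcripts was not examined, and the part of the lengths in the range was not tested.

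**Figure D1:**
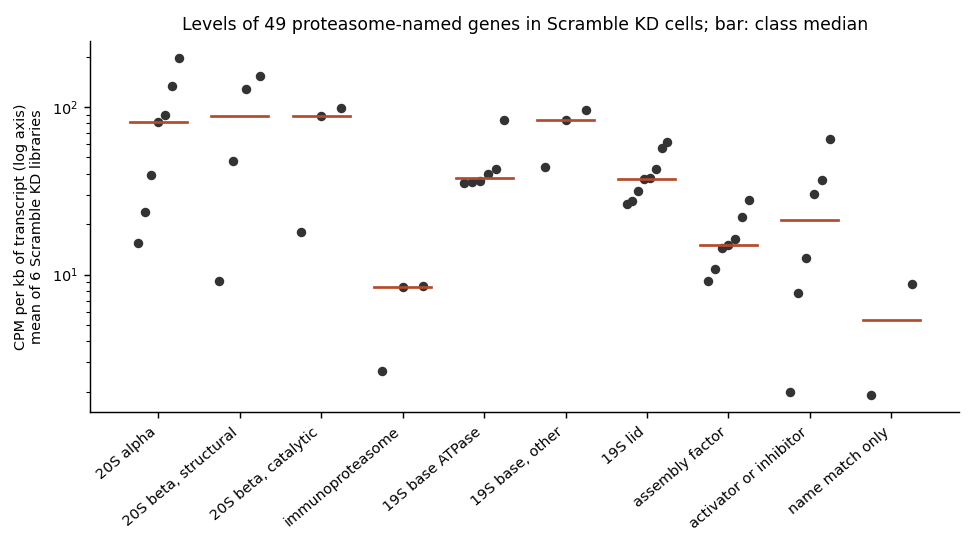
Each point is 1 of the 49 genes with enough counts, placed at its mean CPM per kb of canonical transcript over the 6 Scramble KD libraries on a log axis, and the bar is the class median. The 3 immunoproteasome genes (2.65 to 8.57) lie below all 3 of their constitutive counterparts (17.9 to 98.3).

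The 2 tissue-restricted genes were at the limit of detection. *Psma8* had 6 counts in the whole series, all in *Fmr1* replicate B1, the library with pluripotency transcripts. *Psmb11* had 11 counts in 4 libraries. Neither passed the filter on low counts, and two-sided exact permutation tests of the 6 KD against the 6 Scramble libraries gave p = 1 and p = 0.727 (*Fmr1* KD) and p = 1 and p = 1 (*Zfp598* KD) for *Psma8* and *Psmb11*, so a difference was not detectable at this depth. The other 49 genes passed.

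Of these 49 genes, 1 was called higher and 0 lower in *Fmr1* KD against Scramble KD when both siRNAs were pooled. A gene was called where edgeR's quasi-likelihood test gave a Benjamini-Hochberg adjusted p under 0.05 over all 17901 genes tested, and by this rule 2.73% of all genes were called higher and 3.8% lower. With the further demand of a 2-fold change no member was called, while 1% of all genes were. The median log2 fold change of the members was 0.12, with 39 above 0 and 10 below, and that of all genes was 0.00. At an unadjusted p under 0.05 there were 7 members, and DESeq2 called 2.

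The gene called was *Psmd2* (GRCm39 chr16:20470346-20485708, plus strand), which encodes a base scaffold that binds shuttle factors carrying ubiquitinated substrates. Its level was 313, 284 and 316 CPM with Scramble siRNA A and 268, 281 and 270 with Scramble siRNA B. With *Fmr1* siRNA A it was 371, 368 and 382 CPM, and with *Fmr1* siRNA B 316, 342 and 363. The lowest *Fmr1* KD library, B1, was level with the highest Scramble library, and the other 5 lay above all 6 Scramble values. The mean rose from 289 ± 20.7 to 357 ± 24.2 CPM (SD, n = 6), a 1.24-fold rise with a log2 fold change of 0.31 ± 0.08 (SE) and an adjusted p of 0.031 by edgeR. This call was lost in 9 of 24 alternative analyses: with no filter on low counts, and without Scramble A2, B1, B2 or B3 or *Fmr1* A1, A2, A3 or B3, where the adjusted p reached at most 0.105. *Psmd2* was also the only member called in the same direction with both *Fmr1* siRNAs when each was set against the Scramble siRNA of the same letter: its log2 fold change was 0.30 with siRNA A (adjusted p = 0.0071) and 0.32 with siRNA B (adjusted p = 0.0042).

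No member was called in *Zfp598* KD against Scramble KD by edgeR or by DESeq2, and 6 were below an unadjusted p of 0.05. Of all genes, 0.916% were called higher and 1.04% lower, and 0.464% were called with a 2-fold change. The members' median log2 fold change was 0.08, with 32 above 0, between -0.38 for *Psmg2* and 0.52 for *Psma5*. Without the 3 libraries rich in the unannotated feature, *Psma7* and *Psmg4* were called lower, and without *Zfp598* A1 *Psmd5* was called higher. Since these are bulk libraries, fewer cells of a type and less RNA per cell cannot be told apart in any of these comparisons.

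**Figure D2:**
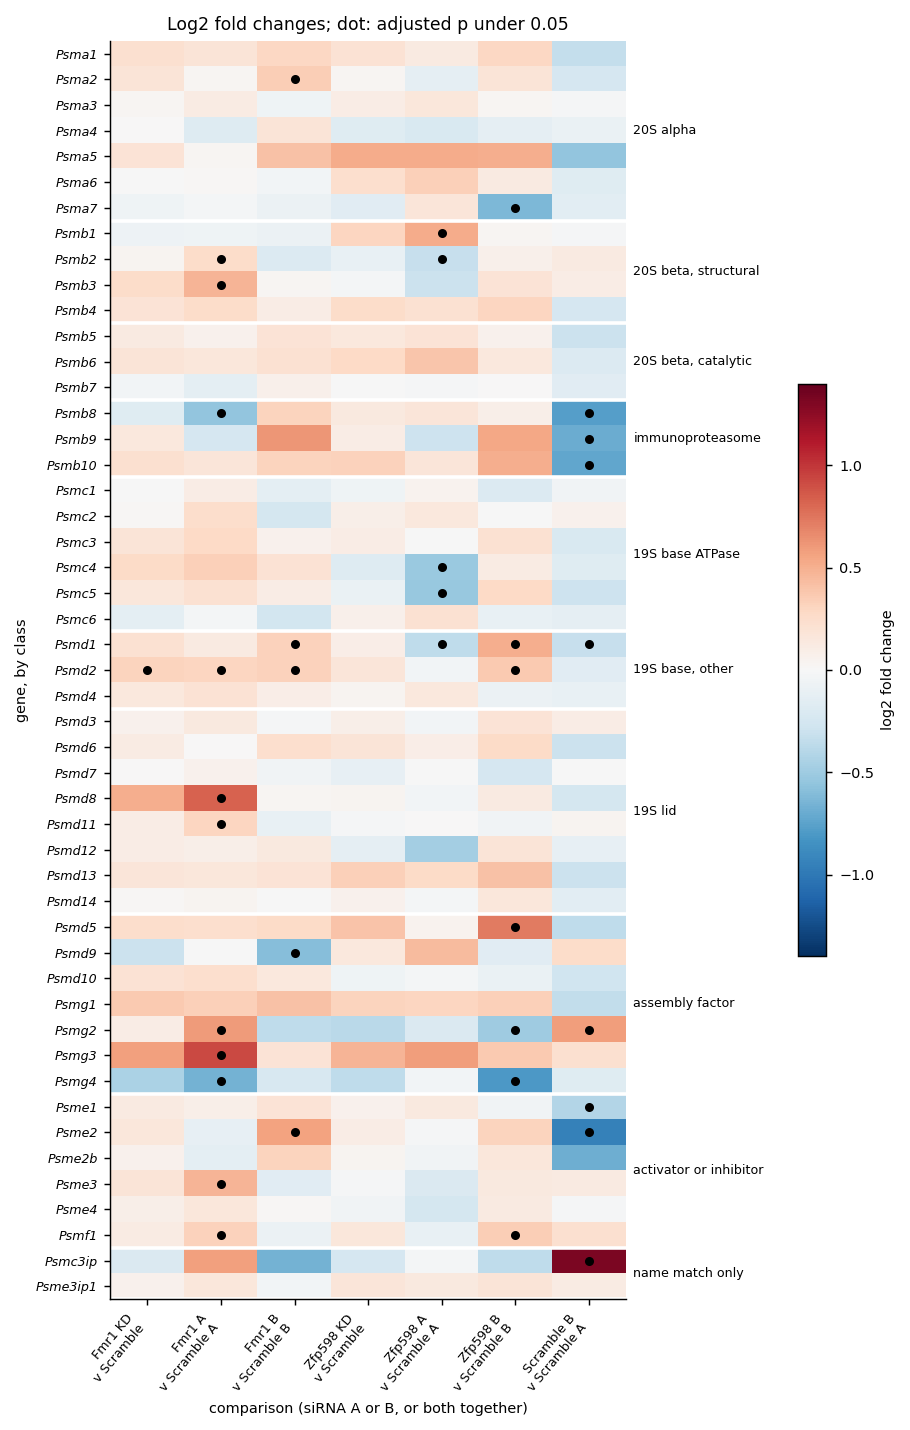
Colour gives the log2 fold change of each of the 49 genes (rows, by class) in 7 comparisons (columns), and a black dot marks an adjusted p under 0.05. Only *Psmd2* carries a dot in a column that pools both siRNAs, and most dots differ between siRNA A and siRNA B of the same target.

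The catalytic genes showed no called change in either pooled comparison. *Psmb5*, the chymotrypsin-like subunit, lay at 23.2 to 40.3 CPM (median 29.4) in Scramble KD, 28.6 to 38.1 (33.2) in *Fmr1* KD, and 22.1 to 55.7 (31.4) where *Zfp598* was depleted. *Psmb6*, the caspase-like subunit, lay at 85.3 to 121 CPM (median 96.1), 101 to 128 (114) and 93.4 to 192 (109) in the same order. *Psmb7*, the trypsin-like subunit, lay at 92.0 to 112 CPM (median 101), 92.8 to 109 (97.6) and 92.7 to 113 (102). The 3 conditions overlapped for all 3 genes. Their pooled log2 fold changes lay between -0.03 and 0.18 for the *Fmr1* siRNAs and between -0.01 and 0.28 for the *Zfp598* siRNAs, with standard errors of 0.08 to 0.19. The highest *Psmb5* and *Psmb6* values were both those of *Zfp598* A3, the library with 25.8% of its counts in the unannotated feature.

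The immunoproteasome genes *Psmb8*, *Psmb9* and *Psmb10* were likewise not called in the pooled comparisons, with log2 fold changes of -0.17, 0.15 and 0.23 in *Fmr1* KD and 0.14, 0.10 and 0.32 in *Zfp598* KD. They differed instead between the Scramble siRNAs. *Psmb8* was at 18.2, 16.1 and 19.7 CPM with Scramble siRNA A and at 9.35, 11.3 and 11.1 with Scramble siRNA B, with no overlap. *Psmb10* was at 17.5, 8.55 and 16.1 CPM against 8.89, 7.22 and 9.21. *Psmb9*, the least abundant of the trio with 24 to 71 counts per library, was at 5.64, 2.65 and 5.03 CPM against 3.09, 2.99 and 2.11. For *Psmb9* and *Psmb10*, Scramble replicate A2 lay among the siRNA B values.

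All 3 were called lower with Scramble siRNA B than with Scramble siRNA A, as were both genes of the interferon-induced activator, *Psme1* and *Psme2*. Their log2 fold changes were -0.77 ± 0.16 for *Psmb8*, -0.69 ± 0.24 for *Psmb9*, -0.73 ± 0.24 for *Psmb10*, -0.41 ± 0.10 for *Psme1* and -0.95 ± 0.17 for *Psme2* (SE, edgeR with 6 groups), a fall of 1.33-fold to 1.93-fold. The adjusted p-values from edgeR were 0.0016, 0.049, 0.039, 0.0047 and 0.0004. *Psme2* lay at 53.9, 36.9 and 49.6 CPM with siRNA A and at 22.4, 23.9 and 26.3 with siRNA B. *Psme1* lay at 66.5, 53.1 and 60.9 CPM against 46.1, 44.6 and 45.6. Neither of these genes overlapped between the Scramble siRNAs.

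The other called members in this comparison were *Psmd1*, lower, and *Psmc3ip* and *Psmg2*, higher, giving 2 higher and 6 lower of 49 against 9.48% and 11.6% of all 19003 genes tested. *Psmb8*, *Psme1*, *Psme2* and *Psmd1* kept their calls when the libraries rich in the unannotated feature were left out, whereas *Psmb9* and *Psmb10* lost theirs. *Psmb9* lost its call in 20 of 24 alternatives and *Psmb10* in 7. The count of 8 became 15 without Scramble A2, 14 without *Zfp598* A1 and 5 without Scramble B1. Among 11 other antigen presentation genes, *H2-K1* (-0.50), *H2-D1* (-0.44) and *Pdia3* (-0.33) were called lower, and 0 higher. In the same comparison all 12 genes of a proliferation list were called higher with Scramble siRNA B, at a median log2 fold change of 0.97, and their part in the result was not tested. The neuronal markers *Stmn2* (-0.70), *Tubb3* (-0.72) and *Uchl1* (-0.70) were called lower with Scramble siRNA B, by differences like those of the immunoproteasome genes, while *Elavl4* (-0.12) was not called. *Tubb3* stood at 543, 490 and 509 CPM with siRNA A and at 315, 325 and 302 with siRNA B, without overlap, and the part of these markers was not tested either. The immune marker sum was 58.6 to 80.4 CPM with siRNA A and 52.8 to 79.7 with siRNA B.

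**Figure D3:**
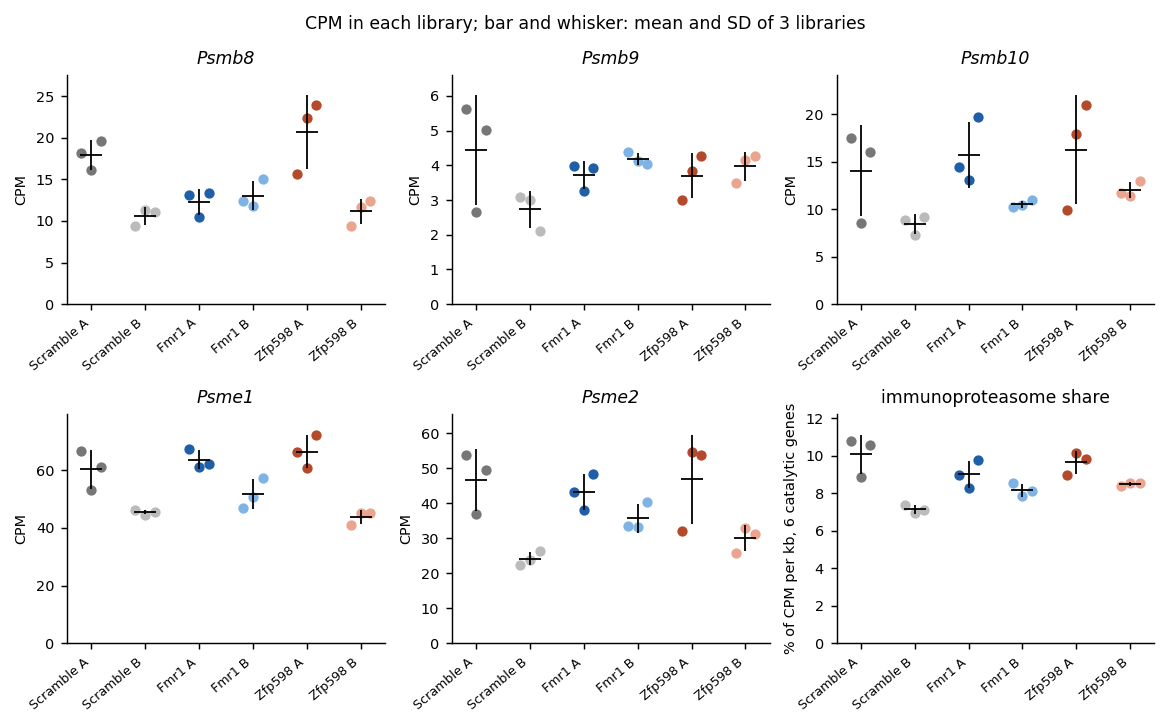
Points are the CPM of each library by siRNA group, with the mean and SD of 3 libraries, for the 3 immunoproteasome genes and the 2 interferon-induced activator genes, and the last panel gives the immunoproteasome trio as a percentage of the summed CPM per kb of the 6 catalytic genes. Scramble siRNA B holds the lowest group mean of *Psmb8*, *Psmb9*, *Psmb10* and *Psme2*, and its 3 shares of 6.92% to 7.37% are the lowest in the series.

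Summed per length over the 6 catalytic genes, the immunoproteasome trio made up 10.1% ± 1.04 (SD, n = 3) with Scramble siRNA A and 7.14% ± 0.227 with Scramble siRNA B. The share was 8.99% ± 0.738 with *Fmr1* siRNA A, 8.15% ± 0.342 with *Fmr1* siRNA B, 9.64% ± 0.611 with *Zfp598* siRNA A and 8.49% ± 0.116 with *Zfp598* siRNA B. In each of the 3 conditions the mean with siRNA A was above that with siRNA B. The letters do not pair siRNAs of different targets, so this order does not repeat 1 comparison. The libraries of siRNA A and siRNA B were apart in Scramble KD and in *Zfp598* KD, and they overlapped in *Fmr1* KD. Without the libraries rich in the unannotated feature, the shares left were 8.87% and 10.6% with Scramble siRNA A and 8.96% with *Zfp598* siRNA A, still above those of siRNA B. These are shares of mRNA, and protein was not measured in these files.

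The windows before the starts of *Psmb8*, *Psmb9*, *Psme1* and *Psme2* are shown because these genes are known interferon targets and were lower together with Scramble siRNA B. The sequences are RefSeq promoters on build GRCm38.p6, 250 bases up to the transcription start, printed 5′ to 3′ on the gene's strand, and where *Psme2* has several starts the first listed is given. Capitals mark a match, on either strand, to the STAT site GAS (TTCNNNGAA), the interferon-stimulated response core (GAAANNGAA), the antioxidant response element ARE (TGACNNNGC), the CCAAT box (CCAAT) or the GC box (GGGCGG).
*Psmb8* chr17:34197945-34198194 (+ strand): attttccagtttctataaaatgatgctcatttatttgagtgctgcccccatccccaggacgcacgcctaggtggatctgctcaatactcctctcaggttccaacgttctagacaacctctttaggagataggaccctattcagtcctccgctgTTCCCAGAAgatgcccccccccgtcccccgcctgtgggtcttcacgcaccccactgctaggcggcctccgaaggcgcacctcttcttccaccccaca
*Psmb9* chr17:34187331-34187580 (- strand): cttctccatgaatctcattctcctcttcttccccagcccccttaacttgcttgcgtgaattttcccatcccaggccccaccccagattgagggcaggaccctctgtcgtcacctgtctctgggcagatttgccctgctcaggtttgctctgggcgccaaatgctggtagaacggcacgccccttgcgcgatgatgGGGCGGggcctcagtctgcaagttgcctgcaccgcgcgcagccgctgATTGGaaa
*Psme1* chr14:55578244-55578493 (+ strand): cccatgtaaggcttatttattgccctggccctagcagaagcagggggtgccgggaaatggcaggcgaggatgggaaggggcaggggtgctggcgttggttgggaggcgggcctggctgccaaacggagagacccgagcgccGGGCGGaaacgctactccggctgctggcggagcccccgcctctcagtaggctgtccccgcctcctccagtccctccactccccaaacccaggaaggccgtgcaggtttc
*Psme2* chr14:55591102-55591351 (- strand): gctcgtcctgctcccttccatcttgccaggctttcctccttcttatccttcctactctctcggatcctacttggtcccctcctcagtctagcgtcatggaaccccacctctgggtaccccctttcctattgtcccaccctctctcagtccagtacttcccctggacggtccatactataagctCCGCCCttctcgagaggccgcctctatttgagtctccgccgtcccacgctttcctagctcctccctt
*Psmb8* held a GAS match 97 bases before the start. *Psmb9*, which shares a divergent promoter with *Tap1*, held a GC box 55 bases before the start and a reverse-strand CCAAT box at 8. *Psme1* and *Psme2* each held 1 GC box, 109 and 67 bases before the start, and the window of *Psmb10* held none of the 5 motifs. In windows of 300 bases, with 50 after the start added, 43 members had an entry. Among them the GAS letters stood in 3 (6.98%, against 9.55% of all 27025 genes), the response core in 7 (16.3% against 9.76%), of which *Psme1* was 1 with its match outside the bases printed, the ARE in 6 (14.0% against 14.0%), the CCAAT box in 16 (37.2% against 41.1%) and the GC box in 24 (55.8% against 38.2%). These matches are a description of letters and not of binding.

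Against Scramble siRNA A, *Fmr1* siRNA A had 9 members called higher and 2 lower, where 9.35% of all genes were called higher and 12.7% lower. Those called higher were the structural core genes *Psmb2* and *Psmb3*, the base gene *Psmd2*, the lid genes *Psmd8* and *Psmd11*, the nuclear activator gene *Psme3*, the inhibitor gene *Psmf1* and the assembly factors *Psmg2* and *Psmg3*. Those called lower were *Psmb8* and the assembly factor *Psmg4*. In 7 genes (*Psmb3*, *Psmc4*, *Psmc5*, *Psmd2*, *Psmd8*, *Psmd11* and *Psme3*) all 3 libraries of *Fmr1* siRNA A lay above the 15 others. The share of all genes placed in this way was not counted, so the 7 are a description only.

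*Psmd8* (chr7:28873612-28880135, minus strand), a lid subunit needed for joining lid and base, had the smallest adjusted p. It stood at 112, 103 and 122 CPM with *Fmr1* siRNA A and between 48.2 and 66.9 CPM in all 15 other libraries. Against Scramble siRNA A (64.6, 62.7 and 62.0 CPM) the rise was 1.78-fold, a log2 fold change of 0.83 ± 0.10 with an adjusted p of 3.1e-06 by edgeR. With *Fmr1* siRNA B it stood at 53.0, 50.5 and 58.3 CPM, overlapping with Scramble siRNA B (48.2, 53.9 and 57.7), at a log2 fold change of 0.02. The effects of the *Fmr1* siRNAs on *Psmd8* differed, with an interaction log2 value of -0.81 (adjusted p = 0.00025).

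The largest rise with *Fmr1* siRNA A was that of *Psmg3*, an assembly chaperone of the alpha ring, with 12.7, 12.8 and 17.0 CPM against 9.95, 4.37 and 8.28 in Scramble siRNA A. The groups did not overlap, and the log2 fold change was 0.92 ± 0.22 (adjusted p = 0.0042, edgeR). *Psmg4*, its partner in the same chaperone pair, fell from 8.72, 10.3 and 10.2 CPM to 6.22, 5.29 and 7.03, a log2 fold change of -0.66 ± 0.20 (adjusted p = 0.021). *Psme3* stood at 177, 181 and 168 CPM against 123, 127 and 126 (log2 fold change 0.48, adjusted p = 0.00012). *Psmb3* stood at 136, 132 and 134 CPM against 95.3, 95.5 and 97.2 (log2 fold change 0.48, adjusted p = 0.0011). Every library of *Fmr1* siRNA A was above every library of Scramble siRNA A for *Psme3* and *Psmb3*. *Psmb8* was lower at 13.1, 10.5 and 13.3 CPM against 18.2, 16.1 and 19.7 (log2 fold change -0.55, adjusted p = 0.016), and this call was lost against all 6 Scramble libraries, without Scramble A3 and without *Fmr1* A2. Without the libraries rich in the unannotated feature 13 members were called, among them 10 of the 11.

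**Figure D4:**
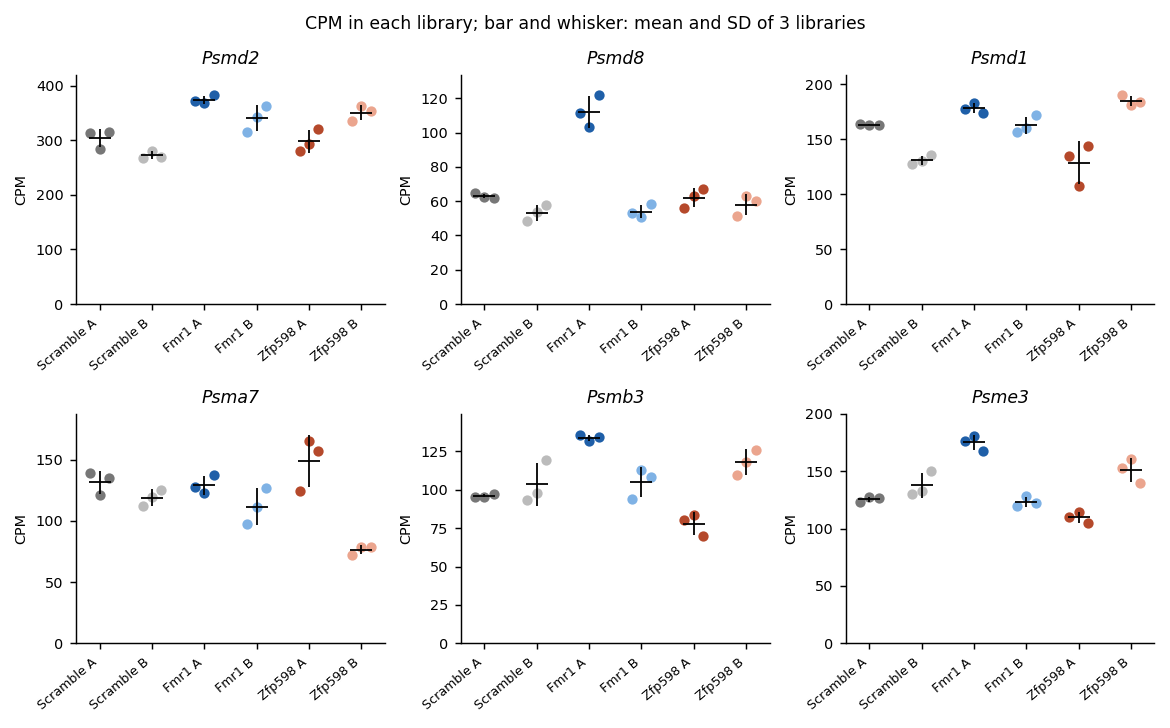
Points are the CPM of each library by siRNA group, with the mean and SD of 3 libraries, for 6 genes that were called in comparisons of single siRNAs. *Psmd8* stands apart only with *Fmr1* siRNA A (103 to 122 CPM) and *Psma7* only with *Zfp598* siRNA B (72.3 to 78.7 CPM). *Psmd1* is lower with *Zfp598* siRNA A (mean 129 CPM) than with *Zfp598* siRNA B (185 CPM). Its 2 Scramble means differ as well (163 CPM with siRNA A, 131 with siRNA B).

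With *Fmr1* siRNA B against Scramble siRNA B, 4 members were called higher and 1 lower, where 11% of all genes were called higher and 10.4% lower. The alpha gene *Psma2* stood at 59.4, 60.8 and 67.1 CPM against 49.1, 50.1 and 49.2 (log2 fold change 0.34, adjusted p = 0.016). The base scaffold *Psmd1* stood at 157, 160 and 172 CPM against 127, 130 and 135 (log2 fold change 0.32, adjusted p = 0.01). *Psme2* stood at 33.5, 33.1 and 40.5 CPM against 22.4, 23.9 and 26.3 (log2 fold change 0.56, adjusted p = 0.023), and the fourth gene was *Psmd2*. The groups did not overlap for any of these genes. *Psme2* with *Fmr1* siRNA B nevertheless lay below its mean with Scramble siRNA A (46.8 CPM), and *Psmd1* was level with it (163 CPM). Against all 6 Scramble libraries *Psmd2* and *Psmd9* were still called, *Psma2*, *Psmd1* and *Psme2* were not, and *Psmc6* was called lower. *Psmd9*, a chaperone of base assembly, fell from 42.1, 42.6 and 37.8 CPM to 28.1, 25.0 and 27.6, below all 15 other libraries (log2 fold change -0.60 ± 0.15, adjusted p = 0.006, edgeR). Without replicate B1, the library with pluripotency transcripts, the same 5 genes were called. The count was 3 without *Fmr1* B3 or without Scramble B1, 9 without *Zfp598* A1 and 11 without the libraries rich in the unannotated feature, among them the 5. The largest rise was that of *Psmb9*, with 4.38, 4.13 and 4.05 CPM against 3.09, 2.99 and 2.11 (log2 fold change 0.62), and the largest fall that of *Psmc3ip*, a meiotic recombination factor, with 2.63, 2.73 and 1.30 CPM against 2.76, 4.23 and 3.64 (-0.67). Neither was called.

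The *Fmr1* siRNAs were then compared with each other. With siRNA B 0 members were called higher and 13 lower than with siRNA A, where 12.6% of all genes were called higher and 10.4% lower. The members' median log2 difference was -0.22, and all 17 genes of the 19S particle were below 0, of which 7 were called: *Psmc1*, *Psmc2*, *Psmc3*, *Psmc5* and *Psmc6* of the 6 ATPases and *Psmd8* and *Psmd11* of the lid. The summed level of the 19S genes was 2062, 1996 and 2177 CPM with siRNA A and 1627, 1715 and 1888 CPM with siRNA B, with no overlap. The count fell to 3 (*Psmd11*, *Psmd8* and *Psme3*) without *Fmr1* replicate B1, to 5 without B2 or without A3, and to 6 without A1, and it was 19 without the libraries rich in the unannotated feature, among them all 13. A comparison of *Fmr1* siRNA B with *Fmr1* siRNA A has no control, and the Scramble siRNAs of the same letters also differed. Of the 12 proliferation genes, 10 were called higher with *Fmr1* siRNA B than with siRNA A, and their part was not tested. The largest positive difference was that of the alpha gene *Psma4* (0.26), at 54.6, 55.1 and 70.2 CPM with siRNA B against 46.1, 46.6 and 57.3 with siRNA A, which overlapped and was not called. With the Scramble difference taken off, as the interaction of siRNA and KD, 1 member was higher (*Psmb8*) and 8 lower (*Psmb2*, *Psmb3*, *Psmc3ip*, *Psmd11*, *Psmd8*, *Psme3*, *Psmf1* and *Psmg2*), where 11.6% and 8.86% of all genes were. That count of 9 fell to 5 without Scramble B3 and was 13 without the libraries rich in the unannotated feature, among them all 9. The Scramble difference is part of each interaction value, and the letters do not pair siRNAs of different targets.

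With *Zfp598* siRNA A against Scramble siRNA A, 1 member was called higher and 4 lower, where 5.6% of all genes were called higher and 5.43% lower. *Psmb1* was called higher, with 290, 482 and 464 CPM against 346, 212 and 300, and the groups overlapped (log2 fold change 0.52 ± 0.17, adjusted p = 0.047, edgeR). *Psmb2* was called lower, at 29.6, 27.6 and 27.8 CPM against 36.6, 34.2 and 35.0, without overlap (log2 fold change -0.32). The ATPase genes *Psmc4* and *Psmc5*, which encode neighbouring members of the unfolding ring, were called lower at log2 fold changes of -0.52 and -0.53. *Psmc4* stood at 37.9, 49.4 and 39.7 CPM against 58.2, 56.5 and 66.3, and *Psmc5* at 35.6, 35.1 and 50.2 CPM against 53.5, 56.8 and 60.8. *Psmd1* was lower, at 135, 107 and 144 CPM against 164, 163 and 163 (log2 fold change -0.35, adjusted p = 0.012). The groups were apart for *Psmc4*, *Psmc5* and *Psmd1*. The largest rise was that of *Psmg3* (0.59), at 8.87, 11.7 and 13.9 CPM, which was not called.

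The count in this comparison depended on single libraries. Leaving out *Zfp598* A1, the library of that siRNA with the ordinary share of 5.67%, raised the count from 5 to 22 of 49, whereas leaving out A2 gave 1 and leaving out A3 gave 3. Leaving out Scramble A2 gave 2 and Scramble A3 gave 1. Calls over all genes moved as well, from 1065 higher and 1032 lower. They were 574 and 568 without Scramble A2, and 684 and 670 without Scramble A3. For the fits without *Zfp598* A1, A2 or A3 the share of all genes is not given here. Those counts are therefore no result about the members alone. Without all 3 rich libraries, which leaves A1 alone in its group and assumes that it varies like the others, *Psmc4* and *Psmc5* remained, both lower, and *Psmb1*, *Psmb2* and *Psmd1* did not. The levels of *Psma5*, an alpha gene, were 136, 232 and 282 CPM in A1, A2 and A3, in the order of the feature's shares of 5.67%, 15.2% and 25.8%. Of the 49 members, 34 were higher in both A2 and A3 than in A1 and 5 lower in both, with median canonical lengths of 1577.5 and 3837 bases. In Scramble siRNA A, 36 were higher in both A1 (11.1%) and A3 (8.83%) than in A2 (5.00%) and 8 lower in both, with median lengths of 1557.5 and 2388 bases. These orders and lengths were not counted over all genes, so they do not set the members apart from other genes. With the feature itself removed from the counts, 1064 of all genes were called higher and 1044 lower with *Zfp598* siRNA A, from 1065 and 1032. The part of this feature in the members' differences was not tested beyond leaving out libraries or removing the feature.

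**Figure D5:**
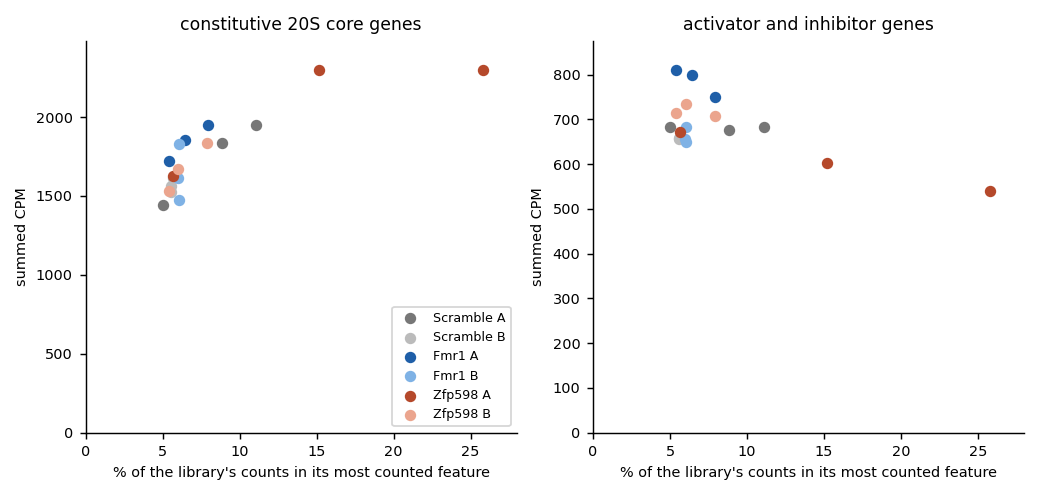
Each point is a library, placed at the percentage of its counts in its most counted feature and at the summed CPM of the 14 constitutive core genes (left) or of the 6 activator and inhibitor genes (right), coloured by siRNA. *Zfp598* A2 and A3 have the highest core sums (2300 and 2298 CPM) and the lowest activator sums (603 and 540 CPM) in the series.

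With *Zfp598* siRNA B against Scramble siRNA B, 4 members were called higher and 3 lower, where 12% of all genes were called higher and 13.2% lower. *Psma7* (chr2:179678155-179684421, minus strand), an alpha ring gene, had the clearest change of the core. It stood at 72.3, 78.7 and 78.3 CPM with *Zfp598* siRNA B and between 97.1 and 165 CPM in the 15 other libraries, including 112, 119 and 126 with Scramble siRNA B. The log2 fold change was -0.63 ± 0.11 (adjusted p = 0.00018, edgeR), and the call held in all 25 alternatives. With *Zfp598* siRNA A the value was 0.17, and the difference between the siRNA effects was called (-0.80, adjusted p = 0.00069). The other 6 alpha genes were not called with this siRNA.

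The genes called higher with *Zfp598* siRNA B were *Psmd1*, *Psmd2*, *Psmd5* and *Psmf1*. *Psmd5*, a chaperone of base assembly, stood at 93.6, 92.4 and 102 CPM against 57.6, 54.9 and 61.6, the largest rise in this comparison (log2 fold change 0.73 ± 0.14, adjusted p = 0.00042, edgeR). *Psmd1* stood at 190, 181 and 184 CPM against 127, 130 and 135 (log2 fold change 0.50, adjusted p = 0.00019). *Psmf1* stood at 42.4, 41.2 and 38.8 CPM, above all 15 other libraries, against 29.2, 34.1 and 33.1 in Scramble siRNA B. *Psmd2* stood at 335, 363 and 354 CPM against 268, 281 and 270. None of these 4 genes overlapped between the groups. *Psmg4* was lower at 3.95, 6.08 and 4.86 CPM against 7.31, 9.49 and 9.33 (log2 fold change -0.81 ± 0.21, adjusted p = 0.0067), as was *Psmg2* at 26.3, 25.3 and 25.2 CPM against 34.7, 35.2 and 39.1. The count of 7 became 12 without *Zfp598* A1 and 13 without the libraries rich in the unannotated feature, and all 7 genes were among the 13.

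No member was called in the same direction with both *Zfp598* siRNAs. *Psmd1* was called in opposite directions, lower with siRNA A and higher with siRNA B, each against the Scramble siRNA of its letter. Those 2 references differed for *Psmd1*, with means of 163 CPM for Scramble siRNA A and 131 for Scramble siRNA B (log2 difference -0.32, called). Its mean with *Zfp598* siRNA A was 129 CPM, level with Scramble siRNA B. The difference between the siRNA effects on *Psmd1* was 0.86 on the log2 scale (adjusted p = 3.9e-05, edgeR), which includes the Scramble difference. Between the *Zfp598* siRNAs themselves it was 0.53. In the interaction as a whole 10 members were higher and 1 lower, where 9.77% and 10.6% of all genes were. The 10 were *Psmb2*, *Psmb3*, *Psmc4*, *Psmc5*, *Psmd1*, *Psmd2*, *Psmd5*, *Psmd12*, *Psme3* and *Psmf1*, and the 1 was *Psma7*. That count of 11 became 18 without *Zfp598* A1, 7 without Scramble A3 or *Zfp598* B1, and 6 without Scramble B1. Without the libraries rich in the unannotated feature it was 10, of which 6 were shared (*Psma7*, *Psmc4*, *Psmc5*, *Psmd1*, *Psmd2* and *Psmd5*). Of the 49 members, 16 were above 0 and 6 below 0 with both *Zfp598* siRNAs, while 24 were above 0 and 5 below 0 with both *Fmr1* siRNAs. The shares of all genes with such signs were not counted.

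Between the *Zfp598* siRNAs themselves, 12 members were called higher and 11 lower with siRNA B than with siRNA A, where 15.2% and 18.1% of all genes were. The count of 23 was 13 without the libraries rich in the unannotated feature, and also 13 without *Zfp598* A2 alone. *Psma7* (-0.95), *Psmg4* (-0.94) and *Psmb8* (-0.86) had the largest falls among those called, and *Psmc3ip* (0.99), *Psmf1* (0.68) and *Psmb3* (0.60) the largest rises. *Psmb8* stood at 15.6, 22.4 and 24.0 CPM with siRNA A and at 9.46, 11.7 and 12.4 with siRNA B, without overlap. Its siRNA B libraries were also the lower ones in Scramble KD, but *Zfp598* siRNA B and Scramble siRNA B are different siRNAs.

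Among the members, the mean of the highest of the 6 groups over that of the lowest had a median of 1.51 and ran from 1.12 to 2.52. The name-only gene *Psmc3ip* had the highest ratio, at 1.41, 1.26 and 1.56 CPM with Scramble siRNA A and 2.76, 4.23 and 3.64 with Scramble siRNA B. Of members with proteasome roles, *Psma5* and *Psmd6* lay below all 15 other libraries with Scramble siRNA B, and *Psmb2*, *Psmb3* and *Psme3* did so with *Zfp598* siRNA A. How many of all genes lay apart in this way, or without overlap in the comparisons above, was not counted. Such placements are therefore a description only. *Psme4*, the large nuclear activator, was the most counted member in CPM, with 402 to 438 in Scramble KD, and was called in neither pooled comparison.

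Of 28 tested genes that work with the proteasome (ubiquitin-activating enzymes, shuttle factors, unfoldases and transcription factors), 0 were called higher and 1 lower in each KD. Among all genes, 2.73% were called higher and 3.8% lower in *Fmr1* KD, and 0.916% and 1.04% in *Zfp598* KD. The 1 gene called lower was *Nfe2l1* in both comparisons, which encodes a transcription factor that raises proteasome gene expression when proteasome activity is short. It stood at 416 to 500 CPM in the 6 Scramble libraries, 315 to 399 in the *Fmr1* libraries and 308 to 384 in those of *Zfp598*, so that neither KD overlapped with Scramble. The log2 fold change was -0.35 ± 0.09 (adjusted p = 0.018) in *Fmr1* KD and -0.41 ± 0.09 (adjusted p = 0.018) in *Zfp598* KD by edgeR, against the same Scramble libraries. By single siRNA it was called lower with *Fmr1* siRNA B (-0.50), *Zfp598* siRNA A (-0.52) and *Zfp598* siRNA B (-0.32), and not with *Fmr1* siRNA A (-0.21, adjusted p = 0.052). Of the 11 tested antigen presentation genes, *Calr*, a chaperone of the endoplasmic reticulum that assists peptide loading, was the only one called in a pooled comparison, lower in both (-0.75 and -0.51). By single siRNA, 2 of the 11 were called higher with *Fmr1* siRNA A (*B2m* and *Irf1*) and 4 lower (*Calr*, *H2-D1*, *Pdia3* and *Tap1*), where 9.35% and 12.7% of all genes were. With *Fmr1* siRNA B *Calr* was lower, with *Zfp598* siRNA A *Calr*, *Erap1* and *Pdia3*, and with *Zfp598* siRNA B *B2m* and *Calr*, with 0 higher in these 3 comparisons. In the same order, 11%, 5.6% and 12% of all genes were called higher and 10.4%, 5.43% and 13.2% lower. *B2m*, the light chain of MHC class I, was thus called in opposite directions, at 1.03 with *Fmr1* siRNA A and -0.57 with *Zfp598* siRNA B.

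Exons of 24 of the 51 members overlap another gene, on the opposite strand in each of the cases given next, and the strand setting of the counting is not given in the sources used here. The overlapped part of the exon bases was 46.8% in *Psmb7*, 41.2% in *Psmd13*, 39.6% in *Psme1*, 39.5% in *Psmc5*, 38.1% in *Psmc3ip*, 30.8% in *Psme2*, 19.6% in *Psmb9* and 14.6% in *Psmb8*, so their counts may hold reads of the neighbours. *Psmd2*, *Psmd8* and *Psmb10* had no overlap, and *Psma7* had 3.09%. The core genes *Psma5*, *Psmb5*, *Psmb6* and *Psmb7* also have processed pseudogenes, whose own counts were 206 at most over the series.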

How the data were processed

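RNA-seq of rRNA-depleted total RNA was analysed from 18 libraries in 6 siRNA groups, grouped by their labels. Per the labels and the study's methods, the authors trimmed reads with Trim Galore, checked them with FastQC, used STAR for alignment to GRCm39 and featureCounts to count reads per gene, and the deposited values are raw counts. The annotation release, the strand setting and the handling of multi-mapping reads are not given in the sources used here. Gene names, lengths and coordinates came from GENCODE M39. Totals ranged from 7674724 to 15414590 counts per library, and this depth limits the precision of members with few counts.

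Counts were normalised by TMM and tested in R 4.3.3 with edgeR 4.0.16 (limma 3.58.1), by its quasi-likelihood test with Benjamini-Hochberg adjustment over all genes tested. One model pooled both siRNAs of a target, and another held the 6 groups. Genes needed the minimum count of 10 and total of 15 of edgeR's filter. CPM used the TMM library sizes. The scripts were tested on simulated data. Alternatives were DESeq2 1.42.0, RLE factors, no filter, a replicate block, counts without the most counted feature, other controls, and leaving out libraries. The alternative without the 3 libraries with over 10% of counts in 1 feature was chosen after seeing the data.

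Values were to be given for the catalytic genes of both kinds, for members called in a pooled comparison, and for the largest rise and fall of each siRNA comparison, and for associated genes called in a pooled comparison. Other genes were named after their values were seen. The members and lists were chosen with earlier results of these data known.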

Additional observations from a re-analysis of the deposited data

Results flagged for a closer look

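Among 147 sets of 6 libraries (49 genes in 3 conditions), 3 held a library far from the other 5, which is 2.04%. The rule used flags about 1 in 20 sets when all 6 values come from a single population. Each set here pooled 3 libraries of siRNA A with 3 of siRNA B, which can differ, so the 2.04% cannot be compared with that rate. *Psmb3* stood at 119 CPM in Scramble B3, *Psme3* at 150.5 CPM in Scramble B3 and *Psmd3* at 129 CPM in *Fmr1* B1, the library with pluripotency transcripts.

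The difference between *Fmr1* siRNA B and siRNA A, less that between the Scramble siRNAs, was called in 9 members. The test was the interaction term of edgeR, at an adjusted p under 0.05. Since the letters do not pair siRNAs of different targets, a difference between the Scramble siRNAs alone can give such a call. Given as siRNA B minus siRNA A on the log2 scale, the differences were -0.96 for *Psmg2*, -0.81 for *Psmd8*, -0.63 for *Psme3*, -0.46 for *Psmb3*, -0.45 for *Psmb2*, -0.41 for *Psmf1* and -0.40 for *Psmd11*. The name-only gene *Psmc3ip* had -1.24, and *Psmb8* alone was positive at 0.86. *Psmc3ip* differed by 0.08 between the *Fmr1* siRNAs themselves and by 1.32 between the Scramble siRNAs. *Psmb8* differed by -0.77 between the Scramble siRNAs and was not called between the *Fmr1* siRNAs.

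The same term for *Zfp598* KD was called in 11 members, with the same limit. The differences were 0.86 for *Psmd1*, 0.81 for *Psmc5*, 0.68 for *Psmd5*, 0.65 for *Psmd12*, 0.63 for *Psmc4*, 0.49 for *Psmb3*, 0.46 for *Psmf1*, 0.40 for *Psmd2*, 0.39 for *Psmb2* and 0.34 for *Psme3*. *Psma7* had -0.80.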

How the results depend on the processing

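The number of members called depended on the processing, and so did the number of all genes called. In *Fmr1* KD, DESeq2 called 751 of all genes higher and 1002 lower, against 489 and 681 by edgeR. Shares of all genes are not given beside the counts below, so these counts are no result about the members alone. With no filter on low counts it was 0 (from 1) in *Fmr1* KD, 8 (from 5) with *Fmr1* siRNA B, 11 (from 5) with *Zfp598* siRNA A and 12 (from 7) with *Zfp598* siRNA B. DESeq2 gave 2 in *Fmr1* KD and 8 with *Zfp598* siRNA A, and the 2-fold rule gave 0 in *Fmr1* KD. Against all 6 Scramble libraries, *Fmr1* siRNA A had 19 (from 11), *Fmr1* siRNA B 3 and *Zfp598* siRNA A 16. Without the libraries with over 10% of their counts in 1 feature, chosen after seeing the data, the count was 3 in *Fmr1* KD, 2 (from 0) in *Zfp598* KD, 11 with *Fmr1* siRNA B, 2 with *Zfp598* siRNA A, 13 with *Zfp598* siRNA B and 13 (from 23) between the *Zfp598* siRNAs.

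Without 1 library in turn, the count was 0 to 2 in *Fmr1* KD, 0 to 1 in *Zfp598* KD, 8 to 14 with *Fmr1* siRNA A, 3 to 9 with *Fmr1* siRNA B, 1 to 22 with *Zfp598* siRNA A and 6 to 12 with *Zfp598* siRNA B. It gave 5 to 15 between the Scramble siRNAs, 3 to 19 between the *Fmr1* siRNAs, 13 to 32 between the *Zfp598* siRNAs, and 5 to 12 and 6 to 18 for the *Fmr1* and *Zfp598* interactions. Calls over all genes also moved: in *Zfp598* KD they were 235 higher and 221 lower without Scramble A1, and 63 and 86 without Scramble B3. The cause was not tested.

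Uncalled log2 fold changes in *Zfp598* KD turned in sign: *Psmb5* to -0.13 and *Psmb8* to -0.15 without the libraries over 10%, and without single libraries *Psmb5* ranged from -0.038 (*Zfp598* A3) to 0.25, *Psmb7* from -0.038 to 0.025 (Scramble A1), *Psmb8* from -0.0021 (*Zfp598* A3) to 0.25 and *Psmb9* from -0.015 (Scramble B3) to 0.27. *Psmb7* was also above 0 without Scramble A3, *Zfp598* B1 or *Zfp598* B2. *Psmb1* between the *Zfp598* siRNAs turned to 0.0038 without the libraries over 10%.

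With the replicate block the counts were 1 and 0 in the pooled comparisons, 12, 5, 5 and 9 for *Fmr1* siRNA A and B and *Zfp598* siRNA A and B, 11, 13 and 25 between siRNAs of Scramble, *Fmr1* and *Zfp598*, and 12 and 12 for the interactions. Whether the numbers pair the samples is not given in the sources used here. Deviations of same-numbered libraries had a median correlation of 0.04, against -0.01 for other numbers. Of the same-numbered pairs, 9 of 45 were over 0.1, and 11 of 18 libraries correlated best with their own number. These values are a hint from the data only and do not settle the pairing.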
